A study of Drosophila melanogaster with 2 samples.

Results

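The nuclear transfer RNA (tRNA) genes of the fruit fly Drosophila melanogaster were examined in peak lists from chromatin immunoprecipitation followed by sequencing (ChIP-seq) of the transcription factor Huckebein. The members were all genes on the nuclear chromosome arms whose symbol starts with "tRNA:" in the Ensembl annotation, which gave 295 of 18164 annotated genes. Of these, 290 are annotated as tRNA genes and 5 as tRNA pseudogenes. No measured value entered the choice. Chromatin came from whole embryos of the strain hkb-GFP, aged 0 to 24 h, in which an insertion targeting hkb supplies Huckebein fused to eGFP, and an antibody against GFP pulled the fusion down. The series has 1 group with 2 biological replicates, both of this genotype and age. There is no second genotype or treatment, and no control was used here, so a peak at a tRNA gene was not compared with an embryo without the fusion. Whole embryos of mixed age and of unrecorded sex hold many cell types, and a peak does not tell in which of them the signal arose. The labels do not say whether the 2 replicates came from separate collections of embryos.

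tRNA genes are short genes transcribed by RNA polymerase III. Their promoter lies inside the transcribed sequence, in a pair of short elements called the A box and the B box, which also encode the D arm and the T arm of the folded tRNA. The factor TFIIIC recognises both boxes and places TFIIIB just upstream of the gene, and TFIIIB brings in the polymerase. Many tRNA genes occur as identical copies, and in the fly many lie in small clusters, often on both strands. Huckebein is a C2H2 zinc finger protein known for its role at both ends of the early embryo, where it acts mainly as a repressor of genes transcribed by RNA polymerase II.

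The sequences of 8 tRNA genes are shown because their peaks have high signal values, and because some of them have identical copies without a listed peak. They are not the 8 of highest signal value. Among those left out are tRNA:Phe-GAA-1-2 (239) and tRNA:His-GTG-1-3 (223.2), and the latter has no match to the A box. The sequences were read from the RefSeq Release 6 genome, whose arms match dm6, and are written 5′ to 3′ along the strand of the gene. Capitals mark the A box and the B box core in its wider form, GTTCNANNC. Of these 8 genes, only tRNA:Val-CAC-2-5, tRNA:Leu-TAA-2-1 and tRNA:Ser-AGA-2-4 hold the narrower core GTTCGANNC, which is counted first below. The first 5 genes have a peak of high signal value within 500 bp, and the last 3 lie away from protein-coding starts. In order they lie at 3R:8669081-8669174 (minus strand), 3R:19672277-19672349 (minus), 3R:24112964-24113047 (plus), 2L:3173003-3173084 (minus), 2L:8541761-8541832 (plus), X:3427452-3427523 (minus), 3L:3096369-3096440 (plus) and 2L:14495878-14495949 (plus).
tRNA:Tyr-GTA-1-8: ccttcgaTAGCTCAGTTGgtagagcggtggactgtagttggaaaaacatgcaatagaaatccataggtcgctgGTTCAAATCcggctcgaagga
tRNA:Val-CAC-2-5: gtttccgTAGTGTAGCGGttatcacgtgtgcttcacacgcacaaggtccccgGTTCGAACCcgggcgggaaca
tRNA:Leu-TAA-2-1: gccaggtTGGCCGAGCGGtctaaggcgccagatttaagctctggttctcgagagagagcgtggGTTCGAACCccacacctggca
tRNA:Ser-AGA-2-4: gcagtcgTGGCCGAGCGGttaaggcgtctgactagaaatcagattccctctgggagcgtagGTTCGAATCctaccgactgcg
tRNA:Asp-GTC-1-5: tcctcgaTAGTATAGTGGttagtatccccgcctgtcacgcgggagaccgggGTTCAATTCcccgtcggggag
tRNA:Gln-TTG-2-1: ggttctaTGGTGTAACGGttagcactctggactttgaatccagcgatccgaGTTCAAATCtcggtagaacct
tRNA:Cys-GCA-1-3: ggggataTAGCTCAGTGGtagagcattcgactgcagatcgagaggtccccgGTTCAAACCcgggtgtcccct
tRNA:Pro-AGG-1-1: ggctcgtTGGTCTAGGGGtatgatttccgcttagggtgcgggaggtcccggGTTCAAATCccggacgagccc

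The windows of 50 bp either side of a summit, the base of highest signal within a peak, are shown for 5 peaks that differ in where the summit lies. Here the capitals mark bases of the tRNA gene, and each window is written along the strand of that gene. In the first window (3R:7130936-7131036) the whole gene lies around the summit, the second (2L:3172968-3173068) and the third (3L:3096409-3096509) hold its 3′ part, the fourth (3L:22847778-22847878) holds its first bases, and the last (3R:8669318-8669418) holds none.
tRNA:Gly-TCC-1-2: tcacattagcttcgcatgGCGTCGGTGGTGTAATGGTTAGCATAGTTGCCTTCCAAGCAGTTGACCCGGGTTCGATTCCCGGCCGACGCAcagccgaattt
tRNA:Ser-AGA-2-4: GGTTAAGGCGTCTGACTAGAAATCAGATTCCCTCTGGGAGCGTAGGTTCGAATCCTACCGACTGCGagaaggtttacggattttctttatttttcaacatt
tRNA:Cys-GCA-1-3: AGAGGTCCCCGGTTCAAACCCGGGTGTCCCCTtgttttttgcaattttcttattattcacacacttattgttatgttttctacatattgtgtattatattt
tRNA:Glu-CTC-2-3: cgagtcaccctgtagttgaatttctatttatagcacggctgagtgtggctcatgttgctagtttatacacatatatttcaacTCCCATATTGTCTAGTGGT
tRNA:Tyr-GTA-1-8: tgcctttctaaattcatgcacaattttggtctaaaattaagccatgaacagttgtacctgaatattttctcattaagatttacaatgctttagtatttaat

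The 295 tRNA genes are 71 to 186 bp long, with a median of 73 bp, and none lies on chromosome 4. With genes at most 2000 bp apart joined, they fall into 161 loci, of which 70 are clusters that hold 204 genes and 91 are single genes. The annotated start of a protein-coding transcript lies within 1000 bp of 81 of them, and 137 overlap a protein-coding gene.

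A tRNA gene was counted as having a peak when a summit lay within 500 bp of it. The list that combines both replicates holds 7220 peaks that passed an irreproducible discovery rate (IDR) of 0.01, which measures how well separate peak sets rank alike. Replicate 1 alone gave a list of 5260 peaks and replicate 2 one of 4347. Here a listed peak means one in the combined list, unless a replicate is named. Each peak carries a signal value, the authors' own score, whose unit is not stated, and read depth is unknown. The intervals below are exact 95% binomial intervals, which cover counting error only and treat genes of 1 cluster as independent although they can share a peak.

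In the combined list 71 tRNA genes had a peak (24.1%, interval 19.3 to 29.4%). Over all genes of the annotation the share was 27.9%, counted in the same way. Protein-coding genes, which are much longer and so offer more room for a summit, had a peak in 32.1% of cases within 500 bp of the gene and in 24.3% within 500 bp of an own start. Small nucleolar RNA genes, which are also short and mostly lie in introns, had one in 11.9% of cases. The share of tRNA genes was thus close to that of coding starts. The interval lies above the share of small nucleolar RNA genes, but this count per gene includes every gene that shares a peak.

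The 71 genes shared 48 distinct peaks, or 0.665% of the combined list, whereas the 32 small nucleolar RNA genes with a peak had 31. Counted per length, the 237 kb within 500 bp of a tRNA gene held 0.203 peaks per kb, beside 0.205 within 500 bp of coding starts, 0.176 around small nucleolar RNA genes and 0.0539 over the arms as a whole. Peak density next to tRNA genes was therefore above that of the genome at large and about that of coding starts. It was only slightly above that of small nucleolar RNA genes, a smaller gap than in the share per gene.

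The replicates alone listed fewer of them. In the list of replicate 1, 41 tRNA genes had a peak (13.9%, interval 10.2 to 18.4%), against 22.4% of all genes. In that of replicate 2, 27 had one (9.15%, interval 6.12 to 13.0%), against 19.9% of all genes. In each replicate the share of tRNA genes lay below that of all genes and its interval did not reach it. Both replicates' lists held a peak at 16 tRNA genes, 14 of which also had one in the combined list, while 26 genes had a peak in the combined list and in neither replicate's own.

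**Figure D1:**
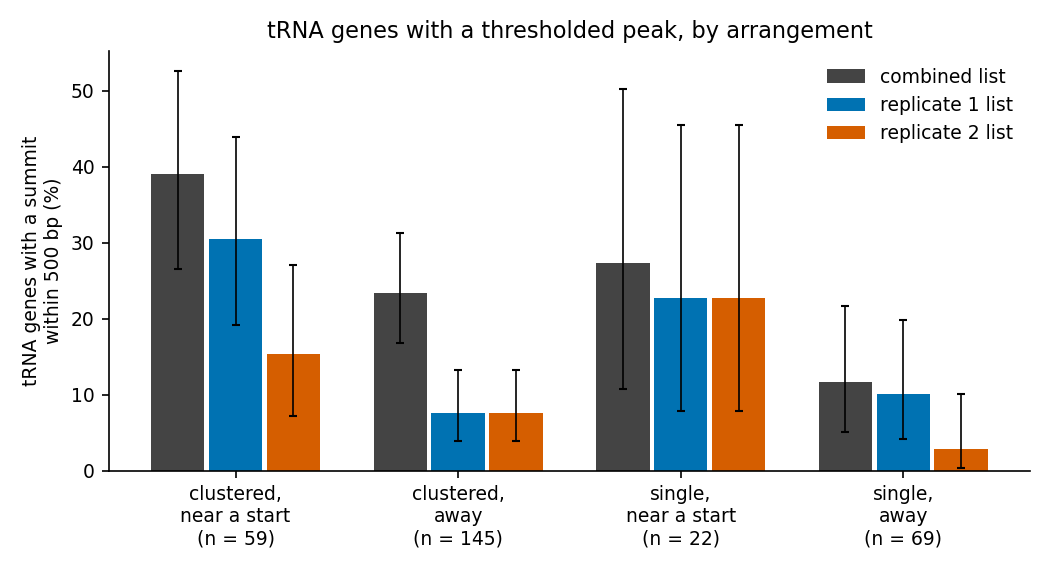
Percent of tRNA genes with a peak summit within 500 bp, for clustered and single genes near and away from a coding start. Shares are for the combined list and each replicate's list, with exact 95% binomial intervals as error bars. In the combined list, clustered genes near a coding start stand at 39% and single genes away from one at 11.6%. Among clustered and among single genes, those near a coding start stand above those away in all 3 lists.

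The tRNA gene peaks were modest in signal. Their median signal value was 90.32 (interquartile range 72.63 to 113.2), beside 106.6 (78.83 to 172.8) for all listed peaks. Only 1 of the 48 ranked in the top 10% of the list, and 34 ranked below its middle.

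They also recurred less in the lists of single replicates. A summit within 100 bp was present in both replicates' lists for 10 of the 48 (20.8%) and in neither for 20 (41.7%), whereas over all listed peaks the shares were 44.6% and 26.4%. Signal value moves with this measure. Among the 2598 listed peaks whose signal value fell within the interquartile range of the tRNA gene peaks, 12.9% were in both lists and 32.4% in neither, and of the 24 tRNA gene peaks in that range 2 were in both and 10 in neither. In that range peaks of both kinds were less often in both lists and more often in neither than listed peaks as a whole, and the part of signal value in the lower recurrence was not tested. Before the IDR threshold, 41 of the 48 had a candidate summit within 100 bp in the ranked lists of both replicates. The replicate values given for a single peak below are those of a summit within 100 bp of it, unless another distance is named.

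**Figure D2:**
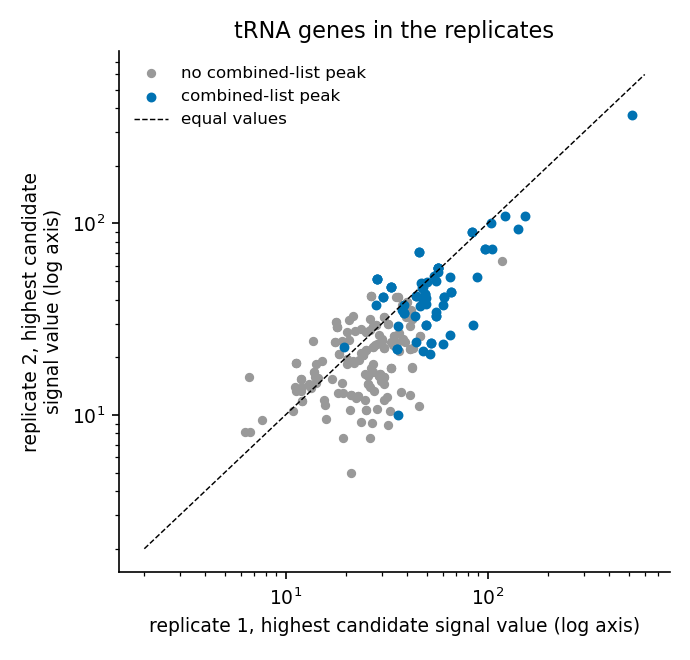
Signal value of the highest candidate peak within 500 bp of each tRNA gene in replicate 1 (x axis) and replicate 2 (y axis), both on log scales, for the 228 genes with a candidate in both. The points rise together, with a Spearman rho of 0.671.

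The highest signal value lay at tRNA:Tyr-GTA-1-8, which decodes tyrosine codons and has an intron. Its peak (3R:8669203-8669520) had a combined signal value of 904.3, with 519.1 in replicate 1 and 368.6 in replicate 2, and ranked 76 of 7220. The summit lay 194 bp upstream of the tRNA gene and 250 bp upstream of the nearest coding start, that of CG8036, so that the window printed above holds no base of the gene. Every other tRNA gene stood far lower.

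Next came tRNA:Val-CAC-2-5, with a combined signal value of 261.7 and with 152.7 and 109.9 in replicates 1 and 2. Its summit lay 498 bp from the 5′ end, beyond the gene, and 401 bp downstream of the start of Naam, which encodes a nicotinamidase. At tRNA:Phe-GAA-1-2 the peak had 239 in the combined list, and 142.2 and 93.25 in replicates 1 and 2, with the summit 9 bp downstream of the start of RpL17, a gene for a protein of the large ribosomal subunit. At tRNA:His-GTG-1-3 the values were 223.2, 121.8 and 109.8 in the same order, with the summit 75 bp upstream of the tRNA gene and 175 bp upstream of the start of CG8490. Each of these 4 peaks has a coding start within 500 bp of the summit, and all 4 were present in both replicates' lists.

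The next 2 were also in both replicates' lists. At tRNA:Leu-TAA-2-1 the peak had a combined value of 205, with 104.5 and 100.5 in replicates 1 and 2, 185 bp upstream of the gene and 390 bp upstream of the start of CG13605. At tRNA:Ser-AGA-2-4 it had 193.7, 105 and 73.97, with the summit inside the gene, 66 bp from its 5′ end and within the core of the B box, and the nearest coding start 822 bp away. It is the tRNA gene peak of highest signal value with no coding start within 500 bp of its summit.

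The rest of the 10 highest are as follows. A peak at tRNA:Trp-CCA-2-2, shared with tRNA:Gly-GCC-1-9, had a combined value of 175.3, with 83.36 and 90.64 in replicates 1 and 2, and its summit lay 69 bp from the start of CG30122. A peak beside tRNA:Asp-GTC-1-5 and tRNA:Asp-GTC-1-4 had 167.6 in the combined list and 96.66 in replicate 1. In replicate 2 it was a candidate of 73.52 that the thresholded list does not hold, and its summit lay 195 bp from the start of Sema1a, a gene for an axon guidance protein. The last 2, at tRNA:Gln-TTG-2-1 and tRNA:Cys-GCA-1-3, belong to genes away from coding starts and are described with them.

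Protein-coding starts marked a part of the tRNA gene peaks. Of the 81 tRNA genes with a coding start within 1000 bp, 29 had a peak (35.8%, interval 25.4 to 47.2%), and of the 214 others 42 (19.6%, interval 14.5 to 25.6%). The order was the same in each replicate, with 28.4% against 8.41% in replicate 1 and 17.3% against 6.07% in replicate 2. In replicate 1 the groups lay further apart than the replicates did within either group, in replicate 2 about as far apart as the replicates did within the first group, and the intervals in the combined list overlap at their ends.

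Of the 48 peaks, 13 (27.1%) had a coding start within 500 bp of the summit, against 43.6% of all listed peaks. These 13 had a median signal value of 167.6, and 6 were in both replicates' lists and 3 in neither. The other 35 had a median of 86.5, and 4 were in both lists and 17 in neither. Over all listed peaks the median signal value hardly differed with and without a coding start that close (106.6 and 106.5).

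Away from coding starts the highest values were as follows. At tRNA:Gln-TTG-2-1 on X the peak had a combined value of 132.6, with 89.16 and 52.59 in replicates 1 and 2, 257 bp upstream of the gene. At tRNA:Cys-GCA-1-3 a peak shared with tRNA:Cys-GCA-1-2, tRNA:Lys-CTT-1-12 and tRNA:Lys-CTT-1-13 had 129.4 in the combined list and 58.4 in replicate 2, and 56.85 as a candidate below the threshold in replicate 1. At tRNA:Pro-AGG-1-1 the peak had 121.8 in the combined list and 65.27 in replicate 1, and 52.56 as a candidate in replicate 2.

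Of these 3, only tRNA:Gln-TTG-2-1 was listed in both replicates, and its value was the higher in replicate 1. At tRNA:Phe-GAA-1-4 and its neighbour tRNA:Phe-GAA-1-5 a peak had 113.4 in the combined list and 45.86 in replicate 1. No replicate 2 candidate had its summit within 100 bp of that summit, but a listed replicate 2 peak of 70.89 lay within 500 bp of both genes. At tRNA:Glu-CTC-2-3 it had 106.1, with 49.96 and 49.6 in the replicates, and its summit lay 32 bp upstream of the gene, as in the fourth window printed above. It is the only glutamate tRNA gene with a listed peak.

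Summits lay close to clustered genes, and less so to single ones. Of the 48, 8 lay inside a tRNA gene, 23 upstream of the nearest one and 17 downstream, and their median position was 19.5 bp from the 5′ end (interquartile range -81.5 to 128.8 bp). Within 100 bp of the gene lay 26 (54.2%, interval 39.2 to 68.6%), and within 250 bp 41. Of all bases within 500 bp of a tRNA gene, 33.5% lie within 100 bp of one. At clustered genes 22 of 33 peaks lay within 100 bp, beside 39% of the bases there. At single genes 4 of 15 did, beside 25.7% of the bases. For the 35 peaks without a coding start within 500 bp of the summit, 22 lay within 100 bp and the median distance was 46 bp. For the 13 with one, 4 did and the median was 194 bp.

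**Figure D3:**
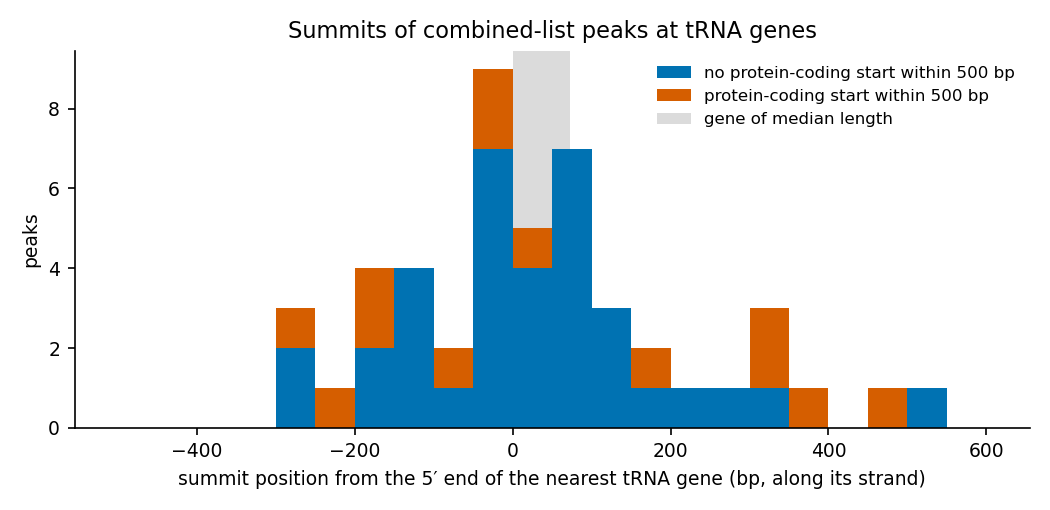
Distance of each of the 48 summits from the 5′ end of the nearest tRNA gene in bp, negative values upstream, as counts of peaks split by whether a coding start lies within 500 bp of the summit. The summits without a coding start gather around the gene, and those with one lie further out. Measured from the nearer edge of the gene instead of its 5′ end, their median distances are 46 bp and 194 bp.

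Clustered genes had a peak more often than single genes in the combined list, but the intervals overlap and no test was run. Of the 204 clustered genes, 57 had a peak (27.9%, interval 21.9 to 34.6%), and of the 91 single genes 14 (15.4%, interval 8.67 to 24.5%), beside 27.9% of all genes. The clustered share thus equalled that of all genes. Counted as loci, 27 of 70 clusters (38.6%, interval 27.2 to 51.0%) and those same 14 single genes had one. A cluster covers more bases than a single gene. Per length, the clustered genes held 0.238 peaks per kb within 500 bp and the single genes 0.153.

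In the replicates' own lists the difference was small per gene and larger per locus. Clustered genes had a peak in 14.2% of cases in replicate 1 and 9.8% in replicate 2, and single genes in 13.2% and 7.69%, so the groups lay closer to each other than the replicates did. Counted as loci, clusters had one in 21.4% of cases in replicate 1 and 12.9% in replicate 2, against the same 13.2% and 7.69% of single genes. Genes with a peak in the combined list and in neither replicate's numbered 24 in clusters and 2 among single genes. The 33 peaks of clusters had a median signal value of 86.95, and 16 of them were in neither replicate's list. The 15 of single genes had a median of 102.2, and 4 were in neither.

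Both splits were crossed. Clustered genes near a coding start had a peak in 23 of 59 cases (39.0%), clustered genes away from one in 34 of 145 (23.4%), single genes near one in 6 of 22 (27.3%) and single genes away in 8 of 69 (11.6%). In each replicate's own list 11 of the 145 clustered genes away from a coding start had a peak (7.59%), and of the 69 single genes away 7 did in replicate 1 and 2 in replicate 2.

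The 5 clusters with most genes differed widely. A cluster of 8 initiator methionine and glutamate tRNA genes (2R:19725620-19729353) had no listed peak. The 7 genes for isoleucine and leucine tRNAs at 2R:13430282-13432794 all had one, on 3 peaks with signal values up to 108.2, and 3 of these genes did in replicate 1 and 4 in replicate 2. The 7 arginine and serine tRNA genes at X:14014814-14017284 had none, and 3 of them had even a candidate, of at most 48.24.

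Around those X genes a median of only 69.7% of the stretches of 36 bases occurred once on the nuclear arms, and the part of this in the low counts was not tested. In the cluster of 6 cysteine and lysine tRNA genes at 3L:3095737-3097590, 4 shared the peak of 129.4 named above, and the 6 asparagine and arginine tRNA genes at 3R:8139533-8141042 had no listed peak and candidates of at most 50.53. Of the 8 clusters with 5 or more genes 4 had a peak (50%, interval 15.7 to 84.3%), and of the 62 with 2 to 4 genes 23 (37.1%, interval 25.2 to 50.3%). In the replicates' own lists these shares were 25% and 21% in replicate 1 and 50% and 8.06% in replicate 2.

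One strong candidate was missing from the thresholded list. Inside the cluster of 8, tRNA:Glu-TTC-1-5 (FBgn0011849, 2R:19727460-19727531) had a candidate with a signal value of 178.6 and a −log10 IDR of 4.48, past the threshold of 2, with replicate candidates within 500 bp of the gene of 118 and 63.4. Its summit lay 37 bp from the gene, and neither replicate's own thresholded list held a peak within 500 bp of that gene. It is 1 of 172 candidates past that threshold, of 7392, which the combined list does not hold, and the only 1 of them within 500 bp of a tRNA gene.

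The other high candidates without a listed peak fell short of the threshold. These were tRNA:Ile-AAT-1-9 with 94.39 and a −log10 IDR of 0.205, and tRNA:Arg-TCT-1-1 with tRNA:Met-CAT-1-1, which share a candidate of 92.03 with 0.426. In the replicates' own lists, tRNA:Ile-AAT-1-9 had a peak of 33.06 in replicate 1. The pair tRNA:Arg-TCT-1-1 and tRNA:Met-CAT-1-1 had 47.17 in replicate 1 and 49.12 in replicate 2. At the edge of the distance rule, the farthest summits counted lay 463 bp from tRNA:Ser-TGA-1-1 (signal value 70.7) and 488 bp from tRNA:Leu-CAA-1-1 (31.61). The nearest not counted lay 546 bp from tRNA:Val-AAC-2-2 (86.95) and 634 bp from tRNA:Thr-TGT-2-4 (92.64).

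Without the threshold, candidates at tRNA genes were common, and those past the threshold are counted here too. In the pooled ranked list of 94831 candidates, 245 tRNA genes had a candidate within 500 bp (83.1%, interval 78.3 to 87.2%), against 73.5% of all genes. Small nucleolar RNA genes had one in 220 of 269 cases, a share close to that of tRNA genes. The median of the highest candidate signal value was 48.63 (interquartile range 34.81 to 70.9) at tRNA genes, 54.28 over all genes with a candidate and 29.07 at the small nucleolar RNA genes with one. Candidates were present at 91.2% of clustered and 64.8% of single genes, and at 88.9% of genes near and 80.8% of those away from coding starts.

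**Figure D4:**
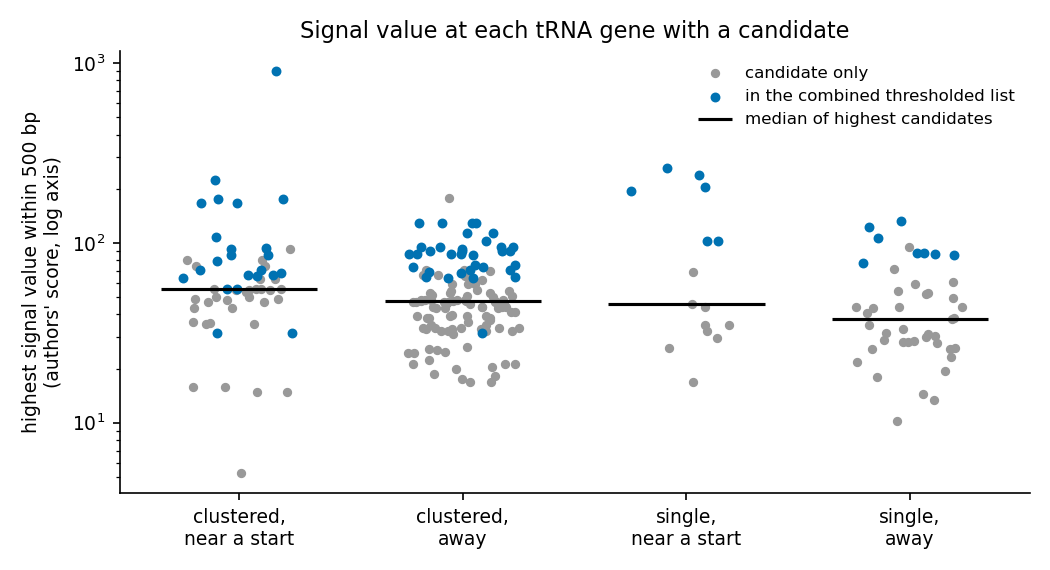
Highest candidate signal value within 500 bp of each tRNA gene (log scale), by cluster and coding-start group, with genes that have a listed peak marked. Medians run from 37.84 for single genes away from coding starts to 55.5 for clustered genes near one, and the groups overlap over most of their range.

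In the 228 genes with a candidate in both replicates the highest values rose together across genes (Spearman rho 0.671, Pearson r of the log10 values 0.726), with medians of 30.61 in replicate 1 and 24.16 in replicate 2. Genes of 1 cluster share candidates, so this is a description only. The 50 genes with no candidate comprised 32 single and 18 clustered genes, and 15 of them lie on X, which holds 26 tRNA genes in all. The median share of stretches of 36 bases that occur once on the nuclear arms was 96.05% around genes without a candidate and 92.7% around those with one. Some genes without a candidate nonetheless lie in repeated sequence, with a lowest share of 29.1%, and the part of repeated sequence in the missing candidates was not tested. The length of the reads is not known here.

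By arm, listed peaks were present at 37 of 100 tRNA genes on 2R, 10 of 41 on 2L, 6 of 49 on 3L, 15 of 79 on 3R and 3 of 26 on X. Over all genes the shares on these 5 arms ran from 25.4% on 2L to 29.9% on 2R, with 26.6% on X. Candidates were present at 11 of the 26 tRNA genes on X, whereas 79% of all genes on X had one. The sex of the embryos was not recorded.

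The amino acid that a tRNA carries, its isotype, went with different shares of genes with a peak. Alanine tRNA genes had one in 9 of 17 cases on 7 peaks, but in 1 case in replicate 1 and 2 in replicate 2. Isoleucine had 6 of 12 on 4 peaks, histidine 3 of 6 on 2 and proline 7 of 17 on 6. In replicates 1 and 2 the counts were 5 and 3 for isoleucine, 5 and 1 for histidine and 2 and 2 for proline. The histidine peaks of the combined list lay at 1 of 2 loci. At the other end stood glutamate with 1 of 21, threonine with 2 of 18 and tyrosine with 1 of 10.

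In the combined list no peak lay at the 6 methionine, the 6 initiator methionine, the selenocysteine or the 5 pseudogene members. In the replicates' own lists, tRNA:Met-CAT-1-1 had a peak of 47.17 in replicate 1 and of 49.12 in replicate 2. The pseudogene tRNA:His-GTG-2-1Psi had one of 42.38 in replicate 1. The isotype groups are small and clusters hold several genes of 1 isotype, so the counts of distinct peaks are the better measure. No isotype was tested.

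**Figure D5:**
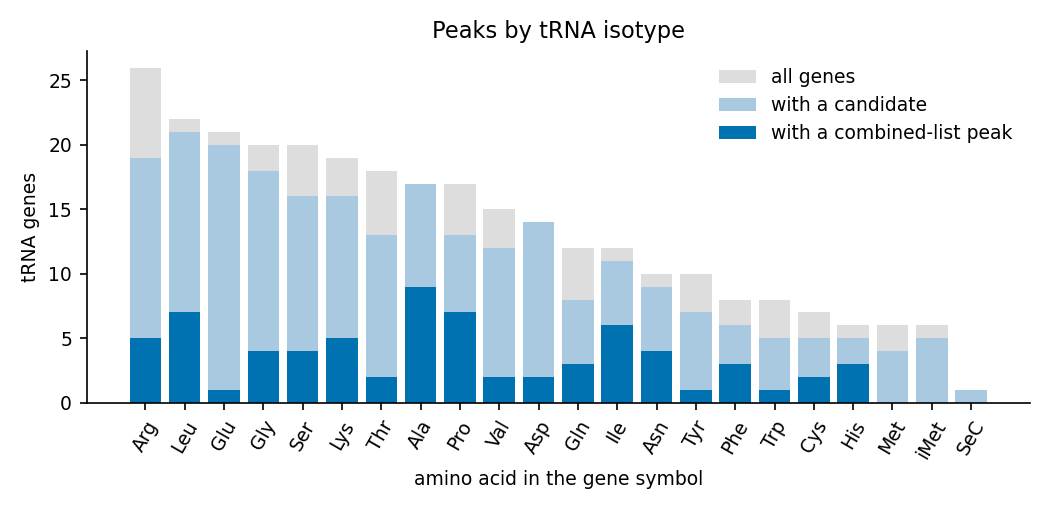
Number of tRNA genes of each isotype with and without a listed peak within 500 bp. Alanine stands at 9 of 17 and glutamate at 1 of 21.

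Identical copies differed in whether a peak lay beside them. Among the members, 43 sequences occur in more than 1 gene and account for 238 genes. Some copies had a peak and others none in 28 of these sequences, no copy had one in 15, and in none did all copies have one. A peak was present at 60 of the 238 copied genes (25.2%) and 11 of the 57 unique ones (19.3%).

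The sequence printed for tRNA:Asp-GTC-1-5 occurs 12 times on 2L, 3L and 3R. All 12 copies had a candidate, with signal values from 17.91 to 167.6 and a median of 43.64, but only the pair beside Sema1a had a peak in the combined list. The copies tRNA:Asp-GTC-1-8 and tRNA:Asp-GTC-1-9 had one of 46.13 in the list of replicate 1. The sequence of tRNA:Val-CAC-2-5 occurs 6 times on 3R, where its copy beside Naam had 261.7 and the next highest 59.42. That of tRNA:Pro-AGG-1-1 occurs 7 times, with values from 33.09 to 121.8, and 3 copies had a listed peak.

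The highest signal value within 500 bp thus varied widely between identical copies. Some of these summits lay outside the gene, 426 bp from tRNA:Val-CAC-2-5 and 120 bp from tRNA:Asp-GTC-1-5. The values therefore do not measure signal on the copied promoter itself. The 9 copies of the tRNA:Glu-CTC-3 sequence on 3L had no listed peak, with candidates from 14.81 to 43.35, and of the 11 copies of tRNA:Ala-AGC-2 6 had one, with values from 26.2 to 87.71. Reads that fall wholly inside a copied gene cannot be assigned to 1 copy, and only reads that reach its flanks can tell the copies apart.

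The internal promoter elements were alike in genes with and without a peak. The A box was found in 273 of the 295 genes (92.5%), in 94.4% of those with a listed peak and 92% of those without. The B box core GTTCGANNC, searched on the strand of the gene, was found in 162 (54.9%), with 54.9% in either group. A wider core, GTTCNANNC, chosen after the first had been counted, includes every match of the first and was found in 274 (92.9%), in 91.5% of genes with a peak and 93.3% of those without.

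Windows of 50 bp either side of the summit were searched on both strands. The first core was present at 8 of the 48 tRNA gene peaks (16.7%) and at 54 of the other 7172 listed peaks (0.753%). Over all windows the share was 0.859%. The wider core was present at 12 of the 48 (25%) and 3% of the others, or 3.14% of all. Both cores are part of tRNA genes themselves, the first in 54.9% and the wider in 92.9% of them, so these counts also reflect how often a tRNA gene lies at the summit.

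Other genes of RNA polymerase III were examined in the same way. The 96 genes for 5S ribosomal RNA, a near-identical array, had no listed peak and 3 had a candidate. Of the other 10, which make small RNAs for splicing, transcription control, protein export and RNA processing, 3 had a listed peak, which is near the 27.9% of all genes, and 9 had a candidate. snRNA:7SKa, for the RNA that holds the elongation factor P-TEFb inactive, had a combined value of 195.1, with 102.8 and 100.3 within 500 bp of the gene in replicates 1 and 2, and snRNA:U6:96Ab and snRNA:U6:96Ac, for the spliceosomal U6 RNA, share a peak of 130.5, with 87.42 and 52.3 counted likewise.

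Genes for RNA polymerase III, its factors and tRNA processing were listed in 8 of 24 cases, against 32.1% of protein-coding genes, and in 7 of 24 in each replicate. The highest were Bdp1 (signal value 358.7) and Brf (312.6), both subunits of TFIIIB, and Polr3E (221.5), a subunit of the polymerase. The summit at Bdp1 lay 48 bp from its own start. The summit at Brf lay 89 bp from the start of its neighbour sds22 and that at Polr3E 185 bp from CG10584, so a peak within 500 bp of these genes is not specific to them.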

How the data were processed

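ChIP-seq peak lists on dm6, per the labels, were used from 2 biological replicates of 1 group, with chromatin sonicated to 200 to 800 bp. The signal value of a peak is a score deposited by the authors, with no unit given. The ranked lists deposited by the authors also hold the −log10 IDR of each candidate. Lists that combine the replicates were deposited beside each replicate's own. The sources used here name no aligner, peak caller or read total.

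Summits were set against Ensembl release 115 genes and the RefSeq Release 6 genome. Shares carry exact Clopper-Pearson 95% intervals, and no test was run. Distance and cluster counts were tested on simulated data. Python 3.11.15, pandas 2.3.3, numpy 2.4.6, scipy 1.17.1 and matplotlib 3.10.9 were used. Genes named are the 10 of highest signal value, the 5 highest away from coding starts, the 5 largest clusters, candidates past the IDR threshold without a listed peak, the 3 highest other candidates, and the 2 nearest genes on each side of 500 bp. Isotypes and families of identical copies were named after their values were seen. The members and lists were chosen with earlier results of these data known.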

Additional observations from a re-analysis of the deposited data

How the results depend on the processing

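Of 70 alternatives, 41 left their value within 1.5 times the reported count, or a median within 4.26, the SD of the replicates' medians. For all tRNA genes (71 with a peak) the count was 27 with summits within 100 bp, 19 with the stronger 50% of listed peaks and 45 by overlap of at least 1 bp, and 27 to 41 in single replicates. For clustered genes (57) these were 23, 13, 36 and 20 to 29, for single genes (14) 4, 6, 9 and 7 to 12. For genes near a coding start (29) they were 10, 11, 17 and 14 to 23, and 14 of 34 with a start within 500 bp. For genes away from one (42) they were 17 and 8, and 13 to 18 in single replicates. With a −log10 IDR of at least 1, 132 genes had a candidate, with a median of 68.47. That median was 54.63 within 1000 bp and 23.9 to 29.93 in single replicates. The wider B box core, added after seeing the data, was in 274 genes instead of 162. Without the peaks near coding starts, also added then, 62.9% of summits lay within 100 bp.

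Genes near a coding start had the higher share in 13 of 13 settings, and clustered genes in 12 of 13, the exception being the stronger 50% of peaks. No paired analysis was possible because there is 1 group. Read depth is unknown, and with 2 replicates and no control in use the shares have no error beyond counting.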
